A study of Rattus norvegicus with 7 samples.

Results

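Integrins were described here by 8 subunit genes, among 14217 named genes on the arrays, read by 18 of 31042 probe sets. All probe sets that the platform annotation names with exactly 1 of 9 gene symbols were taken. These symbols were Itgav, Itgb3, Itgb1, Itgb5, Itga1, Itga2, Itga5, Itga6 and Itga7, and none of the named probe sets belonged to Itga2. The question was how the message of each subunit stood in spinal cord cells over the hours of cyclic tensile stress.

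The cells were cultured spinal cord cells of Sprague-Dawley rat embryos (E15), dissected free of dorsal root ganglia and meninges and grown on flexible wells coated with type IV collagen. They were stretched cyclically and collected after 2, 6 and 12 hours and after 24, 48 and 72 hours, and a 0 hour array is the group without stress. The RNA of 5 animals was pooled at each time, and 1 GeneChip array was hybridised per pool. All arrays share the strain, the age, the culture and the coating, and no array of unstretched cells at a later time was analysed here, so hours of stress and hours in culture cannot be told apart.

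Integrins are receptors made of 1 alpha and 1 beta subunit that hold a cell to its matrix and pass force between the matrix and the actin cytoskeleton. The pair decides the ligand. Alpha v with beta 3 or beta 5 binds vitronectin and other proteins with an RGD sequence, alpha 5 with beta 1 binds fibronectin, alpha 1 and alpha 2 with beta 1 bind collagens, and alpha 6 and alpha 7 with beta 1 bind laminins. Beta 1 is the common partner of most alpha subunits in glia and neurons. Alpha v integrins also release active TGF-beta from its latent complex.

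The proximal promoters of Itgav and Itgb1 are shown because their messages took different courses over the 72 hours, Itgav higher with time and Itgb1 not past the test in either direction. Each is the run of 250 bases before the start of the gene in the RefSeq annotation of the rat assembly GRCr8, written 5′ to 3′ on the strand of the gene, at chr3:89245132-89245381 for Itgav and chr19:73602027-73602276 for Itgb1, both on the plus strand. Capitals mark the GC box GGGCGG on either strand (CCGCCC on the other).
Itgav: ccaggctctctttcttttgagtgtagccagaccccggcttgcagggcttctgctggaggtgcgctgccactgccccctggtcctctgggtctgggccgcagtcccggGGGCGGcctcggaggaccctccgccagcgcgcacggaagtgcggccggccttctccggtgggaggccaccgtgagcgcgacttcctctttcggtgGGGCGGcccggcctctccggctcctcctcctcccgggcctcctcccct
Itgb1: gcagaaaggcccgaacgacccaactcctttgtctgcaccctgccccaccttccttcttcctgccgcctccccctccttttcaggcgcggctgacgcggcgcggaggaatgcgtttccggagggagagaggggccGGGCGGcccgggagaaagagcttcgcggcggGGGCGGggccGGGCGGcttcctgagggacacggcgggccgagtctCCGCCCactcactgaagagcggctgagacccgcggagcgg
The GC content was 72% in the Itgav window and 71.2% in the Itgb1 window, against a median of 51.2% over all 33469 promoters of that length. The GC box was found 2 times in the Itgav window and 4 times in that of Itgb1, and 30.5% of all promoters held at least 1. Of the 9 genes 6 had a promoter, and the GC box was found 3 times for Itga2, once for Itga5 and not for Itgb5 or Itga1. No window of these 6 held the AP-1 motif TGANTCA, the TATA box TATAAA or a CArG box, letters found on either strand in 6.34%, 12.9% and 1.5% of all promoters. A match is a description of letters only.

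Signals are MAS5.0 intensities on a linear scale, set by the authors to a common trimmed mean on each array, and a ratio is the signal at a time over the signal at 0 hours. With 1 array per time a single time has no test. A probe set was called by size when the ratio was at least 2, or at most 0.5, with a difference of at least 200. A change with hours was tested with limma across all 17709 probe sets of a mean signal of at least 100, and the fitted change is the slope times 72 hours on the scale of log2(signal + 32). A probe set is said to have risen or fallen only where the Benjamini-Hochberg adjusted p over all probe sets was under 0.05. Signals of different probe sets depend on their probes, so levels are compared within a probe set and not between genes.

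The arrays had like distributions, with medians of 145 to 162 and between 42.5% and 44.3% of probe sets under a signal of 100. The culture was mixed. Neuronal markers were present at 0 hours with a summed signal of 20254 and stood at 6045 at 72 hours, where 10 of 12 were lower by size. Astrocyte markers summed to 39460 and 38676, and none of 8 tested passed the test. The summed signals of fibroblast and meningeal markers were 74962 and 69900 although the meninges had been removed, and those of skeletal muscle markers were 17740 and 4271. Oligodendrocyte lineage markers summed to 12435 and 11429 with 1 of 6 tested that fell, and those of smooth muscle and pericytes to 6285 and 6097 with 1 of 4 that rose and 1 that fell. All 10 cell cycle markers fell, from a summed signal of 8406 to 1663. In such bulk RNA, fewer cells of a type and less RNA per cell cannot be told apart. The ratio of the 3′ to the 5′ control probe set of actin, a sign of RNA or label quality, was 1.82 at 0 hours, 1.53 to 2.20 from 2 to 24 hours, 2.54 at 48 hours and 2.62 at 72 hours, and that of Gapdh ranged from 1.09 to 1.17. The part of these shifts in the results below was not tested.

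Of the 15 integrin probe sets tested, 4 rose and 3 fell with hours. All 4 that rose belonged to Itgav and Itgb3, and all 3 that fell belonged to Itga6. Over all probe sets tested, 15% rose and 14.1% fell, which is the background against which these small counts stand. By size, 2 of 18 were higher at 12 hours, where 0.419% of all probe sets were, and 2 were higher at 24 hours, where 0.496% were. At 48 hours 3 of 18 were higher and 1 was lower, where 1.98% and 3.05% of all probe sets were. The same counts, 3 higher and 1 lower, were found at 72 hours against 2.6% and 3.54%. No member passed the size threshold at 2 or 6 hours. Several probe sets of 1 gene are not independent, and by gene 2 rose, 1 fell and 5 did not pass the test. The probe sets 1396133_at of Itgb5, 1371185_at of Itga6 and 1371214_at of Itga7 had mean signals of 56.4, 43.5 and 4.34 and were not tested.

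**Figure D1:**
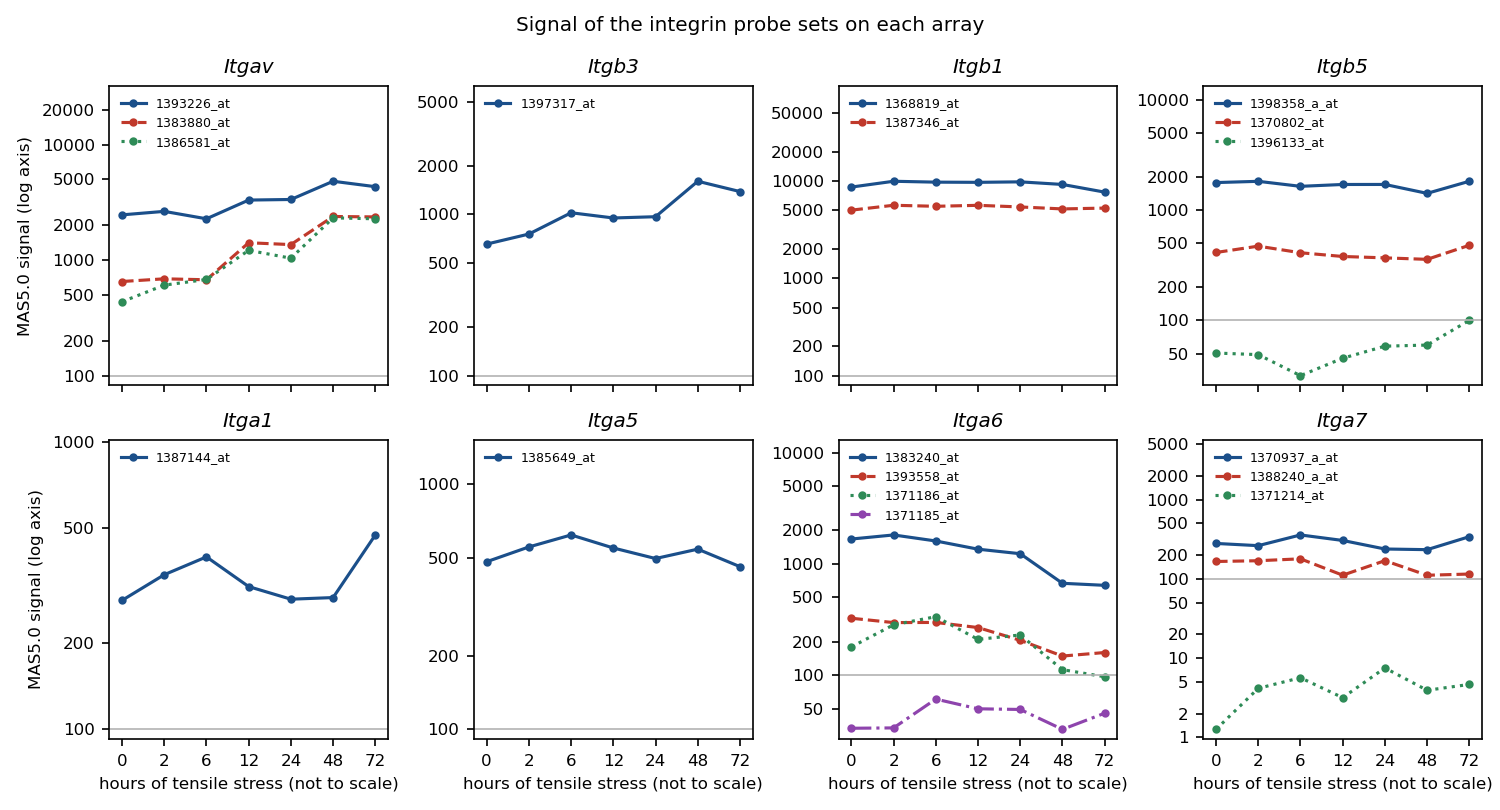
Signal of each of the 18 integrin probe sets (log axis, MAS5.0 units) on the 7 arrays from 0 to 72 hours, 1 point per array and 1 panel per gene with its own scale; hours are evenly spaced and not to scale. The grey line is a signal of 100. The 3 Itgav probe sets and the Itgb3 probe set stand highest at 48 and 72 hours, the upper 3 Itga6 probe sets stand lowest there, and the Itgb1 probe sets stay within 7661 to 9904 and 5003 to 5615.

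Itgav encodes alpha v, the subunit shared by the vitronectin and latent TGF-beta receptors, and all 3 of its probe sets rose in a time-dependent manner. The probe set 1386581_at read 436 at 0 hours, 607 at 2, 679 at 6, 1215 at 12, 1038 at 24, 2320 at 48 and 2277 at 72 hours. Every later array was above the 0 hour array, and the signal was past the size threshold at the 4 times from 12 hours on, with ratios of 2.78, 2.38, 5.32 and 5.22. The fitted change was 2.18 on the log2 scale (SE 0.33, 95% interval 1.44 to 2.92, limma adjusted p = 0.00166), and 0.536% of all probe sets tested had a larger one. A like course was seen for 1383880_at, which read 653, 689, 676, 1413, 1362, 2383 and 2363 over the same times. Its first 3 arrays lay within a few percent of each other and the 4 later ones were at 2.09 to 3.65 times the 0 hour signal. The fitted change of this probe set was 1.93 (SE 0.31, limma adjusted p = 0.00206).

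The third Itgav probe set, 1393226_at, had the highest signals of the 3 and a smaller ratio. It read 2462, 2639, 2277, 3306, 3345, 4809 and 4317, so the 4 arrays from 12 hours on were all above the 3 earlier ones, but the largest ratio, 1.95 at 48 hours, stayed under the size threshold. The fitted change was 0.94 (SE 0.19, 95% interval 0.52 to 1.36, limma adjusted p = 0.00554). The 3 probe sets were thus alike in direction and unlike in size. The slope of 1386581_at exceeded that of 1393226_at by 1.24 over 72 hours (exact permutation over the orders of the 7 arrays, two-sided p = 0.00655, 0.0144 after adjustment over 11 pairs). That of 1383880_at exceeded it by 0.99 (exact permutation p = 0.00218, adjusted 0.0124), and the difference between 1386581_at and 1383880_at was 0.25 (exact permutation p = 0.293, adjusted 0.403). Of the first of these differences the adjusted p went up to 0.0611 when the array of 2 or of 72 hours was left out, and of the second up to 0.0703 when that of 0, 2 or 6 hours was. Itgav is among the genes that the study had named from these same arrays, so its change is not independent of that choice.

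Itgb3 encodes beta 3, the partner of alpha v in the classic vitronectin receptor and of alpha IIb on platelets, and its single probe set rose. It read 655 at 0 hours, 756 at 2, 1024 at 6, 951 at 12, 968 at 24, 1606 at 48 and 1386 at 72 hours. All 6 later arrays lay above the 0 hour array, those of 6 to 24 hours near each other and those of 48 and 72 hours above them, with ratios of 2.45 and 2.12 past the size threshold. With the mean of 0 and 2 hours as baseline, Itgb3 was just under that threshold at 72 hours. The fitted change was 0.996 (SE 0.22, 95% interval 0.50 to 1.49, limma adjusted p = 0.00922). Of 4 measured platelet and megakaryocyte markers only Pf4 was tested and it did not pass, with 9324 at 0 hours and 9702 at 72 hours. The other 3, Ppbp, Gp9 and Itga2b, read 36.9, 8.0 and 92.4 at 0 hours, too low to be tested. The endothelial markers, another source of beta 3, summed to 1743 at 0 hours and 1674 at 72 hours, with 5 of 8 under 100 on all arrays and 1 of 3 tested that rose.

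Itgb5 encodes beta 5, the other vitronectin-binding partner of alpha v, and neither tested probe set passed the test. The probe set 1398358_a_at ranged only from 1423 at 48 hours to 1833 at 72 hours, around 1783 at 0 hours, with a fitted change of -0.07 (SE 0.15, 95% interval -0.40 to 0.26, limma adjusted p = 0.764). The weaker 1370802_at read between 359 at 48 hours and 481 at 72 hours, with a fitted change of 0.04 (SE 0.19, limma adjusted p = 0.887). Between the beta partners of alpha v, the slope of Itgb3 exceeded that of Itgb5 by 1.06 on the log2 scale (exact permutation p = 0.0472, 0.0866 after adjustment). Against hours it was not past the threshold with all 7 arrays, and it was past it without the 72 hour array, at 1.99, and with time as log2(hours + 1) or as ranks, at 1.26 and 1.22.

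Itgb1 encodes beta 1, the shared partner in receptors for fibronectin, collagens and laminins, and neither of its probe sets passed the test. The probe set 1368819_at read 8633, 9904, 9699, 9657, 9767, 9185 and 7661 over the times, highest at 2 hours and lowest at 72 hours, with a ratio at 72 hours of 0.887. Its fitted change was -0.25 (SE 0.12, 95% interval -0.52 to 0.02, limma adjusted p = 0.154). Without the 0 hour array this change was -0.33 and just past the test (limma adjusted p = 0.0449). The second probe set, 1387346_at, kept within 5003 and 5615 on all arrays, with a fitted change of -0.05 (SE 0.11, 95% interval -0.29 to 0.19, limma adjusted p = 0.751). A doubling or halving over 72 hours lies outside the intervals of both. These intervals rest on the spread around a line over time and hold no error between cultures.

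The slopes of alpha v, beta 3 and alpha 6 were each set against that of beta 1, the subunit with the most shared use. The trends above were known when these comparisons were added, and the arrays are the same. They describe the size of the differences and give no separate support for the trends. The slope of Itgav (1393226_at, its probe set of highest mean signal) exceeded that of Itgb1 (1368819_at) by 1.19 over 72 hours on the log2 scale (exact permutation p = 0.00258, adjusted 0.0124). For Itgb3 the difference was 1.24 (exact permutation p = 0.00337, adjusted 0.0124). For Itga6 it was -1.31 (exact permutation p = 0.00556, adjusted 0.0144), with an adjusted p of 0.0611 when the 24 hour array was left out. The slopes of Itgb5, Itga1, Itga5 and Itga7 differed from that of Itgb1 by 0.06 to 0.56, with adjusted p-values from 0.248 to 0.577 in the same exact permutation test. All these comparisons used 1368819_at of Itgb1, with a fitted change of -0.25. The other Itgb1 probe set, 1387346_at, had a flatter fitted change of -0.05 and was not compared.

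**Figure D2:**
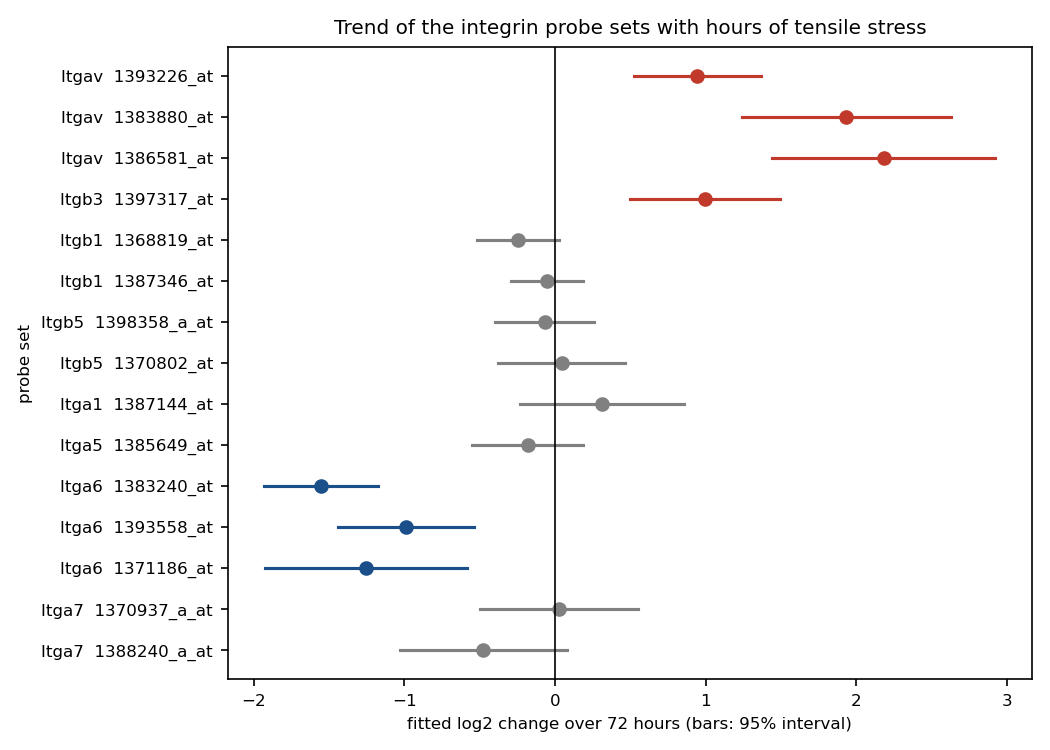
Fitted log2 change over 72 hours of the 15 tested integrin probe sets, from the limma slope on hours; points are estimates, bars are 95% intervals, red is rose, blue is fell and grey is not past an adjusted p of 0.05. The Itgav and Itgb3 probe sets lie between 0.94 and 2.18, those of Itga6 between -1.55 and -0.99, and the intervals of all others include 0.

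Of the alpha subunits that pair with beta 1, those of the collagen and fibronectin receptors did not pass the test. Itga1, the alpha 1 subunit of a collagen receptor, read 281 at 0 hours, 345 at 2, 397 at 6, 313 at 12, 283 at 24, 287 at 48 and 474 at 72 hours. The signal at 72 hours stood apart from the rest, at 1.69 times the 0 hour signal and 1.65 times the 48 hour signal, with a difference to 0 hours of 193, so it stayed under both size limits. Its fitted change was 0.31 (SE 0.25, 95% interval -0.23 to 0.86, limma adjusted p = 0.370). Itga5, the alpha 5 subunit of the fibronectin receptor, ranged from 461 at 72 hours to 621 at 6 hours around 483 at 0 hours. The fitted change of Itga5 was -0.18 (SE 0.17, 95% interval -0.55 to 0.19, limma adjusted p = 0.441).

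Itga7, the alpha 7 subunit of a laminin receptor best known from skeletal muscle, did not pass the test either. The probe set 1370937_a_at read between 233 at 48 hours and 357 at 6 hours, and 279 at 0 and 340 at 72 hours. Its fitted change was 0.02 (SE 0.24, 95% interval -0.50 to 0.55, limma adjusted p = 0.950). The second, 1388240_a_at, had 165 at 0 hours and 115 at 72 hours, with a fitted change of -0.47 (SE 0.25, limma adjusted p = 0.176). Over the same arrays the summed signal of skeletal muscle markers was 17740 at 0 hours, 6704 at 2, 9228 at 6, 6587 at 12, 5629 at 24, 9554 at 48 and 4271 at 72 hours. Of these markers 2 of 12 tested fell (0 to 5 with 1 array left out), and 11 of 15 measured were lower by size at 72 hours. Their part in the Itga7 signals was not tested. The third probe set read 1.26 to 7.52 on all arrays, at the floor of the measurement.

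Itga6 encodes alpha 6, the laminin receptor subunit that pairs with beta 1 or beta 4, and its 3 tested probe sets fell. The probe set 1383240_at read 1671 at 0 hours, 1818 at 2, 1605 at 6, 1355 at 12, 1233 at 24, 669 at 48 and 641 at 72 hours. The signal stayed near its start up to 6 hours and was below it on each array from 12 hours on, with ratios of 0.400 at 48 hours and 0.384 at 72 hours, both past the size threshold. The fitted change was -1.55 (SE 0.17, 95% interval -1.93 to -1.17, limma adjusted p = 0.000409).

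The weaker probe sets of Itga6 took the same direction. The signals of 1393558_at were 325, 297, 298, 268, 206, 148 and 160, and all later arrays were below the 0 hour array. At 72 hours its ratio of 0.492 was past the limit of 0.5, but the signal was only 165 lower. The fitted change was -0.99 (SE 0.20, limma adjusted p = 0.00602). The course of 1371186_at was not monotone, with 179 at 0 hours, 283 at 2, 335 at 6, 210 at 12, 230 at 24, 112 at 48 and 96.7 at 72 hours, so it was higher than at 0 hours through 24 hours and lower only at the last 2 times. Its fitted change was -1.25 (SE 0.30, limma adjusted p = 0.0126), and without the 72 hour array it was -1.36 and no longer past the test (limma adjusted p = 0.107). Over the same arrays, 4 of 11 tested neuronal markers and all 10 cell cycle markers fell, with summed signals from 20254 to 6045 and from 8406 to 1663. The neuronal sum was already 12304 at 2 hours and 6361 at 12 hours, and that of the cell cycle markers was 6952 and 5946 at these times. The neuronal count was 1 without the 48 hour array, 2 without that of 2 hours and 8 without that of 12 hours, 10 with time as log2(hours + 1) or as ranks, and 7 with arrays scaled to the same median. Of the 4 tested Schwann and neural crest markers, Pmp22 alone fell, from 5378 to 1750, while Ngfr and Sox10 had ratios at 72 hours of 1.13 and 1.07. The part of these markers in the lower Itga6 signal was not tested.

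Named genes with the most similar course were looked for among 1402 probe sets of named genes past the size threshold at 72 hours, by Pearson's r of log2(signal + 32) over the 7 arrays, given as a description of a shared course. For Itgav (1386581_at) the closest were Pnpla2, a triglyceride lipase (r = 0.995), Baz2a (r = 0.994), Galm, a sugar mutarotase (r = 0.993), Akr1b1, aldose reductase (r = 0.993), and the CREB coactivator Crtc2 (r = 0.993). Akr1b1 went from a signal of 4498 to 24980 and Pnpla2 from 739 to 2632, and ratios at 72 hours of the 5 lay between 2.13 and 5.55. For Itga6 (1383240_at) they were Gask1b (r = 0.997), the chemokine Cxcl12 (r = 0.993), the endosomal exchanger Slc9a9 (r = 0.991), the docking protein Dok5 (r = 0.991) and Prtfdc1 (r = 0.990). Cxcl12 went from 974 to 212, and the ratios of these 5 were between 0.214 and 0.370. All candidates share the arrays and the filter on the 72 hour signal.

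The other integrin subunits were measured for 14 of 17 genes, of which 11 were tested, 1 rose, 3 fell and 7 did not pass. Among all probe sets tested 15% rose and 14.1% fell. The gene that rose was Itgb4, encoding beta 4, whose known alpha partner is alpha 6. It read 401 at 0 hours, 412 at 2, 296 at 6, 577 at 12, 711 at 24, 849 at 48 and 1244 at 72 hours. The 4 arrays from 12 hours on were all above the 3 earlier ones and in ascending order, with a ratio of 3.10 at 72 hours and a fitted change of 1.67 (SE 0.25, limma adjusted p = 0.00151). Itgb4 rose while the alpha 6 message fell. The 3 that fell encode the leukocyte subunits alpha L (Itgal, 901 to 284, ratio 0.315), alpha X (Itgax, 4009 to 2112) and alpha M (Itgam, 409 to 227), with fitted changes of -1.59, -1.24 and -0.93 and limma adjusted p-values of 0.000590, 0.00261 and 0.0260. Itgb2, the beta 2 partner of these subunits, had a ratio of 0.763 and did not pass (limma adjusted p = 0.128), nor did Itgad and Itgae, with ratios of 0.724 and 0.783. Itgb6 read 41.1 at 0 hours and 0.909 at 72 hours, too low to be tested, and Itgb8 was not measured.

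Over the same arrays 5 of 9 tested microglial markers fell, namely Aif1, Cd68, C1qa, C1qb and C1qc, and 4 did not pass, among them Csf1r with a ratio of 0.950. The summed signal of the list was 53494 at 0 hours, highest at 67087 at 6 hours and lowest at 32520 at 72 hours, and the part of these cells in the leukocyte integrin signals was not tested. Over the 14 measured subunits the median log2 change at 72 hours was -0.38, against 0.02 over all probe sets. With 1 array left out the count that fell was between 2 and 5, with 5 reached without the 0 hour array. The count that rose was 2 when the array of 6 or of 12 hours was left out.

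Matrix ligands of integrins were measured for 25 genes, of which 22 were tested, 8 rose, 3 fell and 11 did not pass. The shares over all probe sets tested were 15% and 14.1%. Those that rose included Tnc, encoding tenascin C, a ligand of alpha v beta 3 (2342 at 0 hours, 6406 at 72 hours, ratio 2.74, fitted change 1.28, SE 0.19, limma adjusted p = 0.00139), and Lama5, the laminin alpha 5 chain (237 and 641, ratio 2.70, fitted change 1.30, SE 0.25, limma adjusted p = 0.00452). Basement membrane chains Col4a1, Col4a2 and Lamc1 rose with ratios of 1.65, 1.65 and 1.85. Ccn2, the connective tissue growth factor, and Mfge8, a bridging ligand of alpha v, rose with 1.67 and 1.55. Fibronectin (Fn1), the ligand of alpha 5 beta 1, rose by the narrowest margin, from 9303 to 12788 (ratio 1.37, limma adjusted p = 0.0496).

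The ligands that fell were the interstitial collagen chains Col1a1 and Col1a2, both with a ratio of 0.717, and periostin (Postn), with 0.741. Of 10 tested fibroblast and meningeal markers 4 fell, namely these same collagen chains, Fap and Cd248, while Dcn, Thy1 and Pdgfrb had ratios of 1.85, 1.80 and 1.42 and did not pass. Unlike the probe set read here, the study lists Pdgfrb with a ratio above 2 at 48 and 72 hours. It also reports a rise of Pdgfrb by RT-PCR from 12 hours on. The part of fibroblasts in the ligand signals was not tested. Osteopontin (Spp1), a ligand of alpha v integrins, read 26516 and 27119 (limma adjusted p = 0.837), and vitronectin (Vtn) read 83.0 and 6.41, too low to be tested. Ccn3 stood at 119 at 48 hours and 858 at 72 hours, a ratio of 2.74 to 0 hours reached on the last array alone (limma adjusted p = 0.499), and Fbln5, encoding fibulin 5, had a ratio of 2.23 (limma adjusted p = 0.0786). The median log2 change at 72 hours over the 25 genes was 0.07, and 4 were higher by size, where 2.6% of all probe sets were. The count of ligands that rose rested on the last array, since leaving out 72 hours gave 1, leaving out 2 hours gave 5 and any other omission gave 6 to 8. The count that fell was 1 when the array of 48 or of 72 hours was left out, or with no filter or no intensity trend, and 0 with time as log2(hours + 1) or as ranks.

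Cytoplasmic adaptors, which tie the integrin tail to actin, were measured and tested for 29 genes, of which 3 rose, 1 fell and 25 did not pass. Of all probe sets tested, 15% rose and 14.1% fell. Bcar1, encoding the scaffold p130Cas, a force-sensitive substrate of Src, rose from 412 to 875 (ratio 2.12, fitted change 1.09, SE 0.21, limma adjusted p = 0.00425). Its relative Nedd9 rose with a ratio of 1.90 and Zyx, encoding zyxin of stress fibres, with 1.46. Parvb, encoding beta parvin, fell with a ratio of 0.664. The core of the adhesion did not pass, with ratios at 72 hours of 1.01 for talin (Tln1), 0.911 for vinculin (Vcl), 0.965 for paxillin (Pxn) and 1.06 for integrin-linked kinase (Ilk), and limma adjusted p-values from 0.399 to 0.536. The count that rose was 2 to 4 with 1 array left out, and the count that fell was 4 when that was the 0 hour array and 0 when it was the one of 72 hours. The median log2 change of the list was 0.18. By KEGG analysis the study lists focal adhesion among the significant pathways of a cluster of upregulated genes. That analysis used its own gene set and thresholds and was not repeated here.

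Among 22 kinases and GTPase regulators downstream of integrins, 1 rose, 4 fell and 17 did not pass. Over all probe sets tested 15% rose and 14.1% fell. None of the probe sets read, 1 per gene, passed the size threshold at 72 hours, where 2.6% of all were higher and 3.54% lower. Pik3ca, a catalytic subunit of PI 3-kinase, rose with a ratio of 1.64, and Fyn, Dock1, Elmo1 and Rap1a fell with ratios of 0.595, 0.721, 0.631 and 0.832. The study lists Pik3ca with a ratio above 2 at 48 and 72 hours, which the probe set read here did not show. Ptk2b, a relative of focal adhesion kinase, had ratios of 1.95 at 12, 2.17 at 48 and 1.81 at 72 hours, the same as the study lists. It did not pass the trend test (limma adjusted p = 0.0674). Focal adhesion kinase (Ptk2) read 1250 and 1424 (fitted change 0.19, SE 0.15, limma adjusted p = 0.376). The number that fell was 1 when the 72 hour array was left out and 2 when that of 2, 6, 24 or 48 hours was, 2 rose when that of 0 or 12 hours was, and the median log2 change was -0.03.

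Genes of latent TGF-beta, the cargo that alpha v integrins release, were tested for 11 members, of which 2 rose, 3 fell and 6 did not pass. Beside these counts stand 15% and 14.1% of all probe sets tested. Ltbp2, a latent TGF-beta binding protein of microfibrils, rose from 299 to 997 (ratio 3.33, fitted change 1.62, SE 0.22, limma adjusted p = 0.00112). Most of that came with the last array, since it read 442 at 48 hours. Ltbp1 rose with a ratio of 1.40, and Ltbp4 fell with 0.481. Tgfbi, a TGF-beta induced matrix protein that binds integrins, fell from 3750 to 958 (ratio 0.255, fitted change -1.62, SE 0.25, limma adjusted p = 0.00164). The receptor Tgfbr1 fell from 5167 to 2708. The count that rose was 0 when the 72 hour array was left out and 1 when that of 2, 6, 12 or 48 hours was, and the median log2 change at 72 hours was -0.22.

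Membrane partners of integrins, the tetraspanins, syndecans and other lateral partners, were tested for 17 genes, of which 1 rose, 4 fell and 12 did not pass. The shares of all probe sets tested that rose and fell were 15% and 14.1%. By size 3 partners were lower at 72 hours, where 3.54% of all probe sets were. Cd36, a scavenger receptor that binds thrombospondin and also stands on macrophages, fell from 2154 to 940 (ratio 0.436, fitted change -1.89, SE 0.34, limma adjusted p = 0.00351). The syndecan Sdc1 fell from 2102 to 941 (ratio 0.448, fitted change -1.48, SE 0.19, limma adjusted p = 0.000769). The tetraspanin Cd82 and the integrin-associated protein Cd47 fell with ratios of 0.749 and 0.817, and Slc3a2, the CD98 heavy chain that binds integrin tails, rose with 1.28. L1cam, a neuronal adhesion molecule and ligand of alpha v beta 3, read 891 at 0 hours, 517 at 2, 288 at 12 and 316 at 72 hours. It was lower by size at 72 hours (ratio 0.355) but did not pass the trend test (limma adjusted p = 0.0784). The count that fell was 2 without the 72 hour array, 5 without that of 12 hours and 6 without that of 0 hours. With 1 array left out, 1 or 0 partners rose, except without that of 12 hours, where 2 did.

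**Figure D3:**
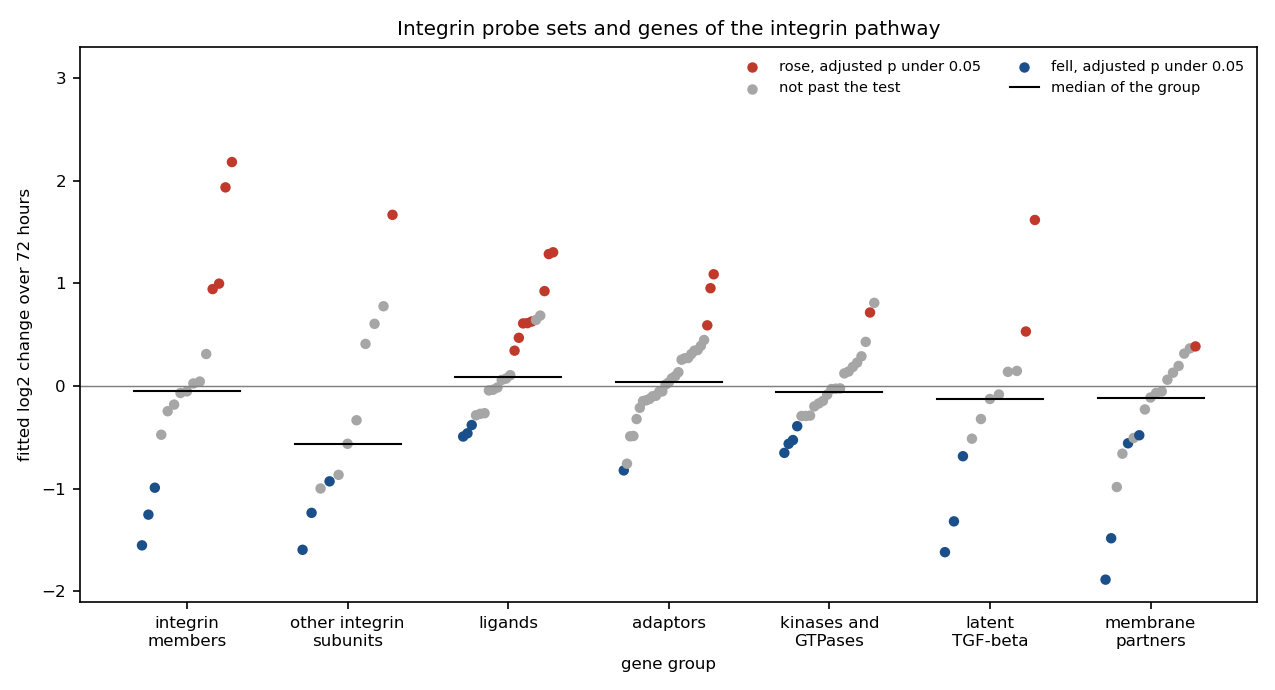
Fitted log2 change over 72 hours of the 15 tested integrin probe sets and of the tested genes of 6 lists, 1 point per probe set or gene in ascending order within its group; red rose and blue fell at an adjusted p under 0.05, grey did not pass, and black bars are group medians. Members are shown by all tested probe sets and each list gene only by its probe set of highest mean signal. Itgav 1386581_at at 2.18 is the highest point of all groups and Cd36 at -1.89 the lowest. By the rule of the lists Itgav would stand at 0.94 (1393226_at), below Itgb4 at 1.67. Most adaptors and kinases lie near 0.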

How the data were processed

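Total RNA of cultured rat spinal cord cells was pooled from 5 animals per time point and hybridised to 1 GeneChip array per time, 7 in all. The authors processed the arrays with GCOS. The deposited value of each probe set is its MAS5.0 intensity after global scaling. These intensities are linear, with a trimmed mean of 500.144 to 500.162 on the arrays, and low ones are uncertain after background subtraction. The version of GCOS is not given in the sources used here. The authors also left out spots that could not be interpreted, by a rule not stated, and that step was not repeated. No deposited column was without a sample.

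After 57 control probe sets were left out, 31042 remained, of which 20826 have 1 symbol in the platform annotation, 436 several and 9780 none. The ratio and difference limits (2 and 200) are those of the study's methods. Trends were tested with limma 3.58.1 (R 4.3.3, lmFit and eBayes with its intensity trend option) after log2(signal + 32), leaving 5 degrees of freedom, and p-values were adjusted by Benjamini-Hochberg over 17709 probe sets. The error is the spread around a line over time and not that between cultures. The fit was tested on simulated data. Slopes of 11 pairs of probe sets were compared by exact permutation over the 5040 orders of the arrays, which takes orders as exchangeable; the smallest p it can give is 0.000198. Python 3.11.15 was used for all else (scipy 1.17.1, pandas 2.3.3, numpy 2.4.6).

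The members and the 17 gene lists were chosen with earlier results of these data known. Where several probe sets name a list gene, that with the highest mean was taken. Named in the text are all member probe sets, up to 4 genes per list past the size threshold at 72 hours, 8 set genes (Fn1, Vtn, Spp1, Ptk2, Ilk, Tln1, Vcl and Pxn) and the 5 nearest courses of 2 members. Other list genes that passed the trend test, Ptk2b, and further subunits and markers, were named after their values were seen. The slope comparisons were added with values known. Alternatives were other thresholds, scalings, pseudocounts, filters, forms of time, a prior without the trend and leaving out each array.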

Additional observations from a re-analysis of the deposited data

How the results depend on the processing

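No paired analysis was possible because each time point has 1 array. Of 239 fitted changes of member probe sets under alternatives, 235 stayed on the same side of the test and 0 of the called ones changed sign. The exceptions were Itga6 1371186_at, which was not past the test with log2(hours + 1) (-0.92, adjusted p = 0.155), with the rank of the time point (-1.05, 0.0762) or without the 72 hour array (-1.36, 0.107), and Itgb1 1368819_at, which passed without the 0 hour array. The counts of 4 probe sets that rose and 3 that fell stayed within 1.5 times under all settings tried. By size at 72 hours, a ratio of 1.5 with a difference of 100 gave 5 higher and 2 lower in place of 3 and 1. A ratio of 3 gave 2 higher and 0 lower, and no minimum difference gave 4 higher and 2 lower. The mean of 0 and 2 hours as baseline gave 2 higher, without Itgb3, and 1 lower. Scaling to the same median moved the median log2 change of all probe sets from 0.02 to 0.07 and quantile normalization to 0.01. The slope of Itgb3 over Itgb5 was past the threshold with log2(hours + 1) (1.26) and with ranks (1.22), and the cause was not tested. With time as log2(hours + 1), counts of list genes that fell were 0 for adaptors (1 against hours), 1 for kinases (4), 2 for partners (4), 2 for fibroblast markers (4) and 5 for skeletal muscle markers (2), and with ranks 0, 2, 3, 2 and 5. A left-out array also leaves fewer orders to permute. There are no replicate cultures, so no value carries an error between them, and signals under 100 have little precision.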
